A study of Mus musculus with 31 samples.

Results

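The Hox cluster genes of the mouse were followed through fetal gonads of wild-type embryos and of Wv/Wv embryos, in which germ cell genes are low. Members were all genes whose annotated symbol is Hoxa, Hoxb, Hoxc or Hoxd with a number, measured by a probe set that names 1 gene. Of 39 such genes in the RefSeq gene table, 33 were measured, out of 18194 measured genes in all: 9 in the Hoxa cluster, 9 in Hoxb, 7 in Hoxc and 8 in Hoxd. The other genes had no probe set of their own and were not analysed here. Where a gene had several probe sets, the one with the highest mean over all arrays was used.

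Hox genes encode homeodomain transcription factors that give cells a position along the head-to-tail axis. They lie in 4 clusters, and genes with the same paralogue number in different clusters descend from a common ancestor and have similar proteins. Low-numbered genes lie at one end of a cluster and act toward the head, and high-numbered genes lie at the other end and act toward the tail. They act with cofactors of the Pbx, Meis and Pknox families, and Polycomb and trithorax complexes keep them silent or active. In the urogenital ridge, genes from the middle and the high-numbered end of the clusters are known for patterning the kidney and the reproductive ducts.

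Ovaries and testes came from wild-type and from Wv/Wv embryos at 12, 14 or 16 dpc (days post coitum). Both alleles of the Wv/Wv embryos carry a single-base change of Kit, the receptor through which germ cells are kept alive and dividing on their way to the gonad. Each of 31 Affymetrix arrays measured 1 RNA sample of total RNA. Wild-type ovaries had 2, 3 and 3 arrays at the 3 ages in order and Wv/Wv ovaries 2, 3 and 3, while wild-type testes had 1, 3 and 3 and Wv/Wv testes 3, 2 and 3. The single wild-type testis at 12 dpc is assumed to vary like the other groups. The study compared male with female and mutant with wild-type gonads. Because Wv changes a base of Kit and does not remove the gene, its signal does not check the genotype label. The labels call the samples biological replicates and do not say whether embryos were pooled or shared a litter, so a p-value measures only the spread between these samples. Whole gonads were measured, so fewer cells of a type and less RNA per cell cannot be told apart.

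All values are log2 signals, on which 1 unit is a 2-fold difference, and a level of one gene is not set against that of another. A gene is called where its adjusted p in limma, over 18194 genes, was below 0.05. The arrays fell into 2 classes: in 21 arrays the values of all probe sets had an SD of 2.33 to 2.39, and in 10 of 1.77 to 2.18. The difference between the 3′ and 5′ control probe sets of Gapdh, a sign of RNA length, had a median of 2.01 in the wide-spread arrays and 0.64 in the narrow-spread ones. All 8 arrays at 12 dpc were wide-spread, and the narrow-spread ones included all 3 wild-type ovaries at 16 dpc. The counts of Hox genes called in each comparison are therefore also given from a class-adjusted fit, which both has the class as a term and leaves out the narrowest array, wild-type testis array 1 at 16 dpc. Counts of the other gene lists are from the fit without these changes unless said. The labelled tissue was borne out by its markers: the mean of 12 Sertoli genes lay at 8.09 to 9.72 in testes and 6.17 to 7.00 in ovaries, and that of 11 pregranulosa genes at 8.76 to 10.26 in ovaries and 6.67 to 8.07 in testes. Of 15 germ cell genes, 13 were lower in Wv/Wv ovaries (median change -3.91) and 12 in Wv/Wv testes (median change -3.29).

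The promoters below belong to the Hoxd genes that differed between testes and ovaries. Each is the 250 bases before the start that the RefSeq promoter table gives the gene on build GRCm38.p6, 5′ to 3′ on the strand of the gene, with capitals marking a CCAAT box on either strand (printed ATTGG where it lies on the opposite strand).
Hoxd3, chr2:74711743-74711992, plus strand: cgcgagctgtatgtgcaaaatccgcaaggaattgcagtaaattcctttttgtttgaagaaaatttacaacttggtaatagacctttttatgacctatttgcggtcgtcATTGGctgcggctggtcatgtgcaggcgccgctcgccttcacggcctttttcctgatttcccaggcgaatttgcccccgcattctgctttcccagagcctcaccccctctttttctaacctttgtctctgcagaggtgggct
Hoxd8, chr2:74704365-74704614, plus strand: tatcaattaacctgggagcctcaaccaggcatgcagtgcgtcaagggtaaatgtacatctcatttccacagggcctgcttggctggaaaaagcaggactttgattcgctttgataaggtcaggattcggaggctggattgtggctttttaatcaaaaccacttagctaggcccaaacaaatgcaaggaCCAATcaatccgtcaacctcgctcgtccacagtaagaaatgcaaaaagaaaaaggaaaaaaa
Hoxd9, chr2:74697513-74697762, plus strand: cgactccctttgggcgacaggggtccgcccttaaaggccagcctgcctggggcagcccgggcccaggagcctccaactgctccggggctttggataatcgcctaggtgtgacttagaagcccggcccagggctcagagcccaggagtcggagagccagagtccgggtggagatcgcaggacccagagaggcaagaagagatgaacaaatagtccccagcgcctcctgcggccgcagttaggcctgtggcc
Hoxd10, chr2:74691641-74691890, plus strand: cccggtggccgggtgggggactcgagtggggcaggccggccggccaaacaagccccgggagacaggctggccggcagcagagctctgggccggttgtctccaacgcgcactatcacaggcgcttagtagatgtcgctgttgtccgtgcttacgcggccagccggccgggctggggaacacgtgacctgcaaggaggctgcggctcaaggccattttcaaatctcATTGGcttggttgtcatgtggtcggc
The CCAAT box lay 142 bases before the start in Hoxd3 (opposite strand), 62 in Hoxd8 (same strand) and 26 in Hoxd10 (opposite strand), and these letters were not in the Hoxd9 window. It occurred in 33.8% of all 32851 promoter windows of this length. No match was found in these windows for the Pbx-Hox site TGATTNAT (2.82% of all windows), the Nr5a1 receptor site CAAGGTCA (1.33%), the Sox factor site AACAAT (9.42%) or the core promoter box TATAAA (12.4%), each searched on both strands. For Hoxd10 the start in the promoter table lies inside the span of the gene in the RefSeq gene table, which begins farther upstream, so its window is the stretch before one of its starts. A match is a description of the letters and no evidence of binding. Of the 33 members, 19 had a window in the table.

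Hox signal was spread over all 4 clusters, and the Hoxc cluster was the most often above the low-signal limit. This limit, 5.705, is the 40th percentile of all values of the probe sets that name 1 gene. Of the 33 members, 13 (39.4%) lay above it on all 31 arrays, 15 (45.5%) on some and 5 (15.2%) on none, against 54.7%, 26.4% and 18.9% of all genes. By cluster, members above it on every array numbered 3 of 9 in Hoxa (Hoxa3, Hoxa5 and Hoxa7), 1 of 9 in Hoxb (Hoxb3), 6 of 7 in Hoxc (every measured member but Hoxc13) and 3 of 8 in Hoxd (Hoxd8, Hoxd9 and Hoxd10). Hoxa9 and Hoxd3 were above it on 30 arrays, Hoxb4 on 29 and Hoxb2 on 28.

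Hoxb1, known for the hindbrain, and Hoxd1 lay below the limit on every array, as did Hoxa4, Hoxb7 and Hoxd12. None of the 7 measured paralogues 11 to 13 was above it on all arrays. Hoxa11, needed for the uterus and the kidney, passed it on 3 arrays, Hoxa13 on 3, Hoxb13 on 1, Hoxc13 on 2, Hoxd11 on 7 and Hoxd13 on 4. The members with the widest range over the arrays were Hoxa9, from 5.65 to 11.61, and Hoxd13, from 4.50 to 9.76, and among the members above the limit on every array Hoxd8 ranged from 8.91 to 10.63 and Hoxd9 from 9.19 to 11.34.

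**Figure D1:**
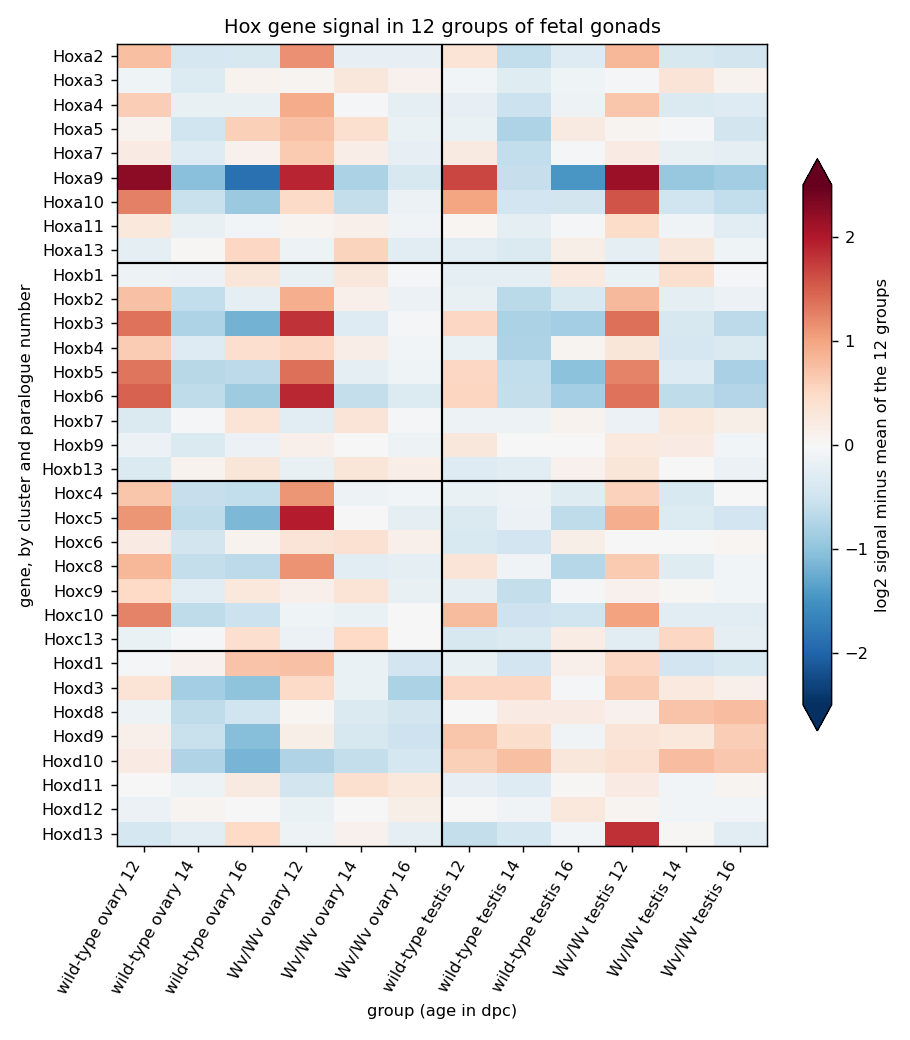
Mean log2 signal of the 33 Hox genes (rows, by cluster and paralogue number) in the 12 groups (columns, ovaries left and testes right, age in dpc), each gene shown as the difference from its own mean over the groups. The 12 dpc columns are red for Hoxa9, Hoxb3 and Hoxb6 in both tissues, and Hoxd10 is red in testes and blue in most ovary groups.

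Between testes and ovaries, 4 members differed, and all were neighbours in the Hoxd cluster with higher signal in testes: Hoxd10, Hoxd9, Hoxd8 and Hoxd3. Over ages and genotypes, these were 4 of 33 members called (12.1%), against 14.8% of all genes called in either direction and 8.48% called higher in testes, so the share among the members was near that of all genes. The median difference of the members was -0.11, and that of all genes was -0.01. No member of the Hoxa, Hoxb or Hoxc cluster was called in this fit.

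Hoxd10, a gene of the cluster's tail end that is known for the hindlimb and spinal cord, showed the largest difference. Wild-type ovaries read 8.14 and 8.82 at 12 dpc, 7.06, 7.58 and 7.91 at 14 dpc, and 6.83, 7.52 and 6.95 at 16 dpc. Wv/Wv ovaries read 7.49 and 7.55, then 8.17, 7.49 and 7.39, then 8.35, 7.44 and 7.69 at the same ages. Wild-type testes read 8.87 at 12 dpc, 8.93, 8.97 and 9.17 at 14 dpc, and 8.24, 8.59 and 8.82 at 16 dpc, and Wv/Wv testes read 8.95, 8.55 and 8.46, then 9.28 and 8.82, then 8.80, 9.02 and 9.04. Every testis array at 14 dpc lay above every ovary array of that age. At 12 dpc the wild-type ovary reading 8.82 lay among the testes, and at 16 dpc the Wv/Wv ovary reading 8.35 lay above the lowest testis. Over all groups Hoxd10 was 1.16 higher in testes (SE 0.13, limma adjusted p = 2.22e-07), with group means averaging 8.85 against 7.69.

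Of the 4 genes, Hoxd8 had the difference with the smallest standard error. Wild-type ovaries read 9.58 and 9.41 at 12 dpc, 9.04, 8.99 and 8.91 at 14 dpc, and 9.19, 9.16 and 9.05 at 16 dpc, and Wv/Wv ovaries read 9.57 and 9.76, then 9.25, 9.30 and 9.25, then 9.12, 9.31 and 9.09. Wild-type testes read 9.64, then 9.82, 9.77 and 9.90, then 9.36, 9.96 and 10.15, and Wv/Wv testes read 9.99, 9.57 and 9.63, then 10.21 and 10.48, then 10.63, 10.32 and 10.26. All testes lay above all ovaries at 14 and at 16 dpc, while the tissues overlapped at 12 dpc. Over all groups Hoxd8 was 0.68 higher in testes (SE 0.08, limma adjusted p = 9.75e-07), and a second probe set of Hoxd8 gave 0.95 (SE 0.18, adjusted p = 0.00043).

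Hoxd3, toward the head end of the cluster, read 7.32 and 7.61 in wild-type ovaries at 12 dpc, 6.36, 6.21 and 6.28 at 14 dpc, and 5.91, 6.47 and 5.94 at 16 dpc. Wv/Wv ovaries read 7.51 and 7.67, then 7.04, 6.58 and 7.23, then 6.72, 5.64 and 6.62. Wild-type testes read 7.64, then 7.64, 7.35 and 7.91, then 7.21, 7.06 and 6.94, and Wv/Wv testes read 7.70, 7.72 and 7.86, then 8.05 and 6.69, then 7.17, 7.21 and 7.36. At 16 dpc no ovary reached the lowest testis, and at 14 dpc the tissues overlapped through the Wv/Wv testis reading 6.69. Over all groups Hoxd3 was 0.67 higher in testes (SE 0.13, limma adjusted p = 0.000625).

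Hoxd9, known with its paralogues for the limb and spinal cord, is named because the count of called members was 4. It read 10.08 and 11.17 in wild-type ovaries at 12 dpc, 9.54, 9.98 and 10.31 at 14 dpc, and 9.19, 9.66 and 9.43 at 16 dpc, and 10.46 and 10.83, then 10.43, 9.91 and 9.97, then 10.32, 9.86 and 9.79 in Wv/Wv ovaries. Wild-type testes read 11.20, then 11.04, 10.73 and 11.07, then 9.50, 10.80 and 10.96, and Wv/Wv testes read 11.18, 10.69 and 10.61, then 11.19 and 10.34, then 10.79, 11.22 and 11.34. The low testis value of 9.50 came from the narrowest array, and the tissues overlapped at every age. Over all groups Hoxd9 was 0.76 higher in testes (SE 0.16, limma adjusted p = 0.000963).

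**Figure D2:**
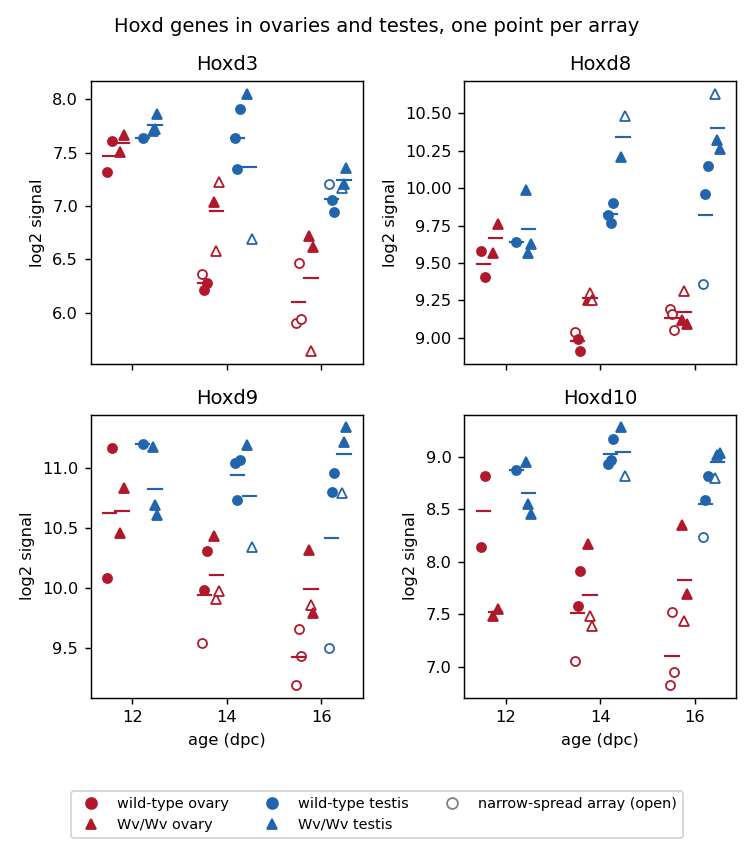
Log2 signal (vertical axis) of Hoxd3, Hoxd8, Hoxd9 and Hoxd10 by age in dpc (horizontal axis), with 1 point per array, circles for wild type, triangles for Wv/Wv, open symbols for narrow-spread arrays and short lines for group means. Testes (blue) lie above ovaries (red) at 14 and 16 dpc for Hoxd8, while the tissues overlap at 12 dpc in Hoxd3, Hoxd8, Hoxd9 and Hoxd10.

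The 4 Hoxd genes follow each other on chromosome 2 in the order Hoxd10, Hoxd9, Hoxd8 and Hoxd3, and the unmeasured Hoxd4 lies within the span that the gene table gives Hoxd3. On the tail side of Hoxd10, Hoxd11 differed by -0.10 (SE 0.15, adjusted p = 0.789) and Evx2, the homeobox gene beyond Hoxd13, by -0.15 (adjusted p = 0.688). On the head side, Hoxd1 lay below the limit on every array, and Mtx2, a mitochondrial import gene beyond it, differed by 0.04 (adjusted p = 0.935). Lnpk, a gene of the endoplasmic reticulum on the tail side of the cluster, differed by 0.16 (adjusted p = 0.436). Paralogues of the 4 genes in other clusters were not called: Hoxa10 differed by 0.16, Hoxc10 by 0.08, Hoxa9 by -0.02, Hoxb9 by 0.22, Hoxc9 by -0.26, Hoxc8 by -0.07, Hoxa3 by -0.04 and Hoxb3 by -0.27.

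By age, the testis excess was called at 14 and 16 dpc. At 12 dpc limma called 0 members (1.02% of all genes called), 3 had an unadjusted p below 0.05, and those with the lowest adjusted p were Hoxc5 at -1.26 (SE 0.40, adjusted p = 0.217) and Hoxd10 at 0.77 (SE 0.25, adjusted p = 0.261). The class-adjusted fit (5.18% of genes called) and the wide-spread arrays alone (7.4%) each called these 2 genes at 12 dpc with the same differences. At 14 dpc 4 members were called, all higher in testes (9.05% of genes in either direction, 5.46% higher): Hoxd10 by 1.44 (SE 0.20, adjusted p = 2.1e-05), Hoxd8 by 0.96 (SE 0.13, adjusted p = 1.14e-05), Hoxd3 by 0.88 (SE 0.21, adjusted p = 0.00682) and Hoxd9 by 0.83 (SE 0.25, adjusted p = 0.0359). When 1 array at a time was left out, Hoxd9 lost its call at this age in 7 of 31 fits and Hoxd3 in 1. Without Wv/Wv testis array 1 at 14 dpc, 2 members were called, and Hoxd3 at 0.54 and Hoxd9 at 0.62 were not. The class-adjusted fit called 4 members at 14 dpc (23.1% of genes) and the wide-spread arrays alone 5 (20.1%), the fifth being Hoxb9 at 0.46.

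At 16 dpc the same 4 Hoxd members were called, all higher in testes (12.5% of genes in either direction, 6.33% higher). Hoxd10 was higher by 1.29 (SE 0.19, adjusted p = 3.05e-05), Hoxd9 by 1.06 (SE 0.24, adjusted p = 0.00282), Hoxd8 by 0.96 (SE 0.12, adjusted p = 3.74e-06) and Hoxd3 by 0.94 (SE 0.20, adjusted p = 0.00167). In the narrow-spread arrays alone (16.1% of genes called), 3 of them were called and Hoxd9, at 0.50, was not (adjusted p = 0.141). The class-adjusted fit called 5 members (26.3% of genes), the fifth being Hoxb5, lower in testes at -0.90. Counting only genes whose arrays did not overlap, testes lay above ovaries for Hoxb7 and Hoxd12 at 12 dpc (9.48% of genes), both below the low-signal limit throughout, for Hoxd8 and Hoxd10 at 14 dpc (4.27%) and for Hoxd3 and Hoxd8 at 16 dpc (2.19%). Testes lay below ovaries for Hoxd1 at 14 dpc (2.84% of genes), also below the low-signal limit throughout.

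In the class-adjusted fit, the mean over ages gave 8 called members (24.2%) where 30.4% of all genes were called, a share below that of all genes. Hoxd10 at 1.05, Hoxd8 at 0.76, Hoxd9 at 0.71 and Hoxd3 at 0.54 were higher in testes in this fit too. Hoxa2 at -0.35, Hoxb4 at -0.39, Hoxb5 at -0.53 and Hoxc5 at -0.52 were lower in testes. The Hoxd members were also called higher in testes after quantile normalization and after centring on housekeeping genes.

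Across age, Hox genes fell from 12 to 16 dpc in both tissues, with members of all 4 clusters among them in ovaries. In ovaries 14 of 33 members fell and 0 rose (42.4%), where 12.8% of all genes were called in either direction and 7.67% fell. The median change was -0.43 for the members and 0.00 for all genes. By cluster, 4 of 9 Hoxa members fell (median of all measured members -0.48), 4 of 9 Hoxb (median -0.39), 3 of 7 Hoxc (median -0.84) and 3 of 8 Hoxd (median -0.33). Both measured paralogues 2 and both measured paralogues 8 fell, and no measured paralogue 1, 7, 11, 12 or 13 was called. In testes 7 members fell and 0 rose (21.2%), where 7.69% of all genes were called and 4.19% fell, and the median change was -0.30 against -0.05 for all genes. These were Hoxa2, Hoxa9, Hoxa10, Hoxb3, Hoxb5, Hoxb6 and Hoxc10, with no member of the Hoxd cluster among them.

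Hoxa9, a gene of the posterior trunk that is also known for blood stem cells, had the largest change. Wild-type ovaries read 11.42 and 10.66 at 12 dpc, 6.49, 8.28 and 8.48 at 14 dpc, and 6.85, 6.97 and 6.97 at 16 dpc. Wv/Wv ovaries read 11.61 and 9.80, then 8.98, 8.30 and 6.74, then 9.34, 7.18 and 8.64. Wild-type testes read 10.47, then 8.24, 8.49 and 7.91, then 5.65, 8.15 and 8.22, and Wv/Wv testes read 9.59, 11.61 and 11.59, then 8.51 and 7.17, then 6.29, 8.54 and 8.93. Every 12 dpc array lay above every later array, 9.59 being the lowest at 12 dpc and 9.34 the highest later. Hoxa9 fell by 3.21 in ovaries (SE 0.63, limma adjusted p = 0.00123) and fell by 3.07 in testes (SE 0.69, adjusted p = 0.00519). Its other probe set gave -0.19 in ovaries and 0.13 in testes, neither called, so the probe sets of this gene disagree.

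Hoxb6, known for the limb and the trunk, read 8.46 and 6.64 in wild-type and 8.16 and 7.75 in Wv/Wv ovaries at 12 dpc. Later ovaries lay between 4.83 and 6.26. At 12 dpc the wild-type testis read 6.61 and the Wv/Wv testes 6.21, 8.00 and 8.06, and later testes lay between 4.83 and 5.66. All 12 dpc arrays of a tissue lay above all its later arrays, but the 12 dpc arrays themselves ran from 6.64 to 8.46 in ovaries and from 6.21 to 8.06 in testes. At 16 dpc it was above the low-signal limit on 2 of 6 ovary arrays and 0 of 6 testis arrays, so its change is measured against signal mostly below that limit and its size is uncertain. Hoxb6 fell by 2.30 in ovaries (SE 0.34, limma adjusted p = 5.97e-05) and fell by 1.74 in testes (SE 0.37, adjusted p = 0.0035).

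Hoxc5 read 10.34 and 9.19 in wild-type and 10.65 and 10.59 in Wv/Wv ovaries at 12 dpc, 7.58, 8.28 and 8.20 against 9.39, 8.40 and 8.15 at 14 dpc, and 7.99, 7.49 and 7.12 against 8.41, 7.79 and 9.07 at 16 dpc. Testes at 12 dpc read 8.30 in the wild type and 8.46, 10.00 and 10.22 in Wv/Wv. Later testes lay between 7.43 and 8.72. The ovaries of 12 and 16 dpc did not overlap, whereas the testes did, through 2 of the 12 dpc arrays. Hoxc5 fell by 2.21 in ovaries (SE 0.34, limma adjusted p = 9.54e-05), and its 2 other probe sets gave -0.90 and -0.80 there, both called. In testes it differed by -0.84 (SE 0.37, adjusted p = 0.195).

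Other Hoxb genes fell as well. Hoxb3, at 12 dpc, read 9.29 and 7.84 in wild-type and 9.32 and 8.72 in Wv/Wv ovaries, 7.73 in the wild-type testis and 7.25, 9.16 and 9.40 in Wv/Wv testes. Ovaries at 16 dpc had a low of 5.82, a median of 6.39 and a high of 7.63, and testes 5.93, 6.54 and 6.80. Hoxb3 fell by 2.19 in ovaries (SE 0.37, limma adjusted p = 3e-04) and fell by 1.71 in testes (SE 0.41, adjusted p = 0.00858), while its other probe set, not called, gave -0.31 and -0.54. Hoxb5, known for the gut's nerve cells and the lung, read 7.32 and 6.55 in wild-type and 7.11 and 6.85 in Wv/Wv ovaries at 12 dpc, 6.13 in the wild-type testis and 5.94, 7.33 and 7.26 in Wv/Wv testes. Its lowest, median and highest at 16 dpc were 4.68, 5.08 and 6.00 in ovaries and 3.97, 4.71 and 5.47 in testes, so neither tissue overlapped between 12 and 16 dpc. It too was above the low-signal limit on 2 of 6 ovaries and 0 of 6 testes at 16 dpc, which leaves the size of its change uncertain. Hoxb5 fell by 1.73 in ovaries (SE 0.33, adjusted p = 0.00103) and fell by 1.80 in testes (SE 0.36, adjusted p = 0.002). Hoxb2, known for the hindbrain, had a low, median and high of 6.61, 7.32 and 7.69 in ovaries at 12 dpc and of 5.87, 6.15 and 6.61 at 16 dpc. It fell by 1.01 (SE 0.24, adjusted p = 0.00742).

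In the Hoxa cluster, Hoxa10, needed for the uterus and for testis descent, read 7.06 and 6.08 in wild-type and 6.44 and 5.14 in Wv/Wv ovaries at 12 dpc, 6.29 in the wild-type testis and 5.20, 7.93 and 7.50 in Wv/Wv testes. Its medians at 16 dpc were 4.76 in ovaries and 4.65 in testes, and it was above the low-signal limit on 0 of 12 arrays of that age, so the size of its change is uncertain. The ages overlapped through the Wv/Wv arrays reading 5.14 and 5.20. Hoxa10 fell by 1.41 in ovaries (SE 0.35, limma adjusted p = 0.0101) and fell by 1.81 in testes (SE 0.39, adjusted p = 0.00346), and its other probe set, not called, gave 0.32 and -0.10. Hoxa2, known for the branchial arches, read 6.36 and 5.77 in wild-type and 6.54 and 6.39 in Wv/Wv ovaries at 12 dpc, and had a low, median and high of 4.79, 5.01 and 5.23 at 16 dpc. At 16 dpc it was above the low-signal limit on 0 of 6 ovaries and 1 of 6 testes, so the same holds for its size. It fell by 1.24 in ovaries (SE 0.24, adjusted p = 0.00105) and fell by 0.97 in testes (SE 0.26, adjusted p = 0.0219). Hoxa4 also fell in ovaries, but it lay below the low-signal limit on every array, so no fold is given. Hoxa5, known for the lung, was not called by the probe set used (-0.20 and -0.07), whereas its other probe set fell by 2.54 in ovaries (SE 0.39, adjusted p = 0.000122) and fell by 2.57 in testes (SE 0.43, adjusted p = 0.000301).

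In the Hoxc cluster, Hoxc8, known for the thorax and motor neurons, read 10.16 and 9.57 in wild-type and 10.43 and 9.91 in Wv/Wv ovaries at 12 dpc, against a low, median and high of 8.30, 8.58 and 8.93 at 16 dpc, without overlap. Hoxc8 fell by 1.41 in ovaries (SE 0.26, limma adjusted p = 0.000832) and differed by -0.88 in testes (SE 0.29, adjusted p = 0.0672). Hoxc4 read 9.27 and 8.50 in wild-type and 9.56 and 9.00 in Wv/Wv ovaries at 12 dpc and had a low, median and high of 7.28, 7.71 and 8.60 at 16 dpc, with overlap, and it fell by 1.24 (SE 0.28, adjusted p = 0.00383). Hoxc10, known for the hindlimb, was called in testes and not in ovaries, a difference that did not itself pass the test. In testes it read 8.29 in the wild type and 7.21, 9.22 and 9.10 in Wv/Wv at 12 dpc and 6.85, 7.13 and 7.44 (low, median and high) at 16 dpc. It fell by 1.28 there (SE 0.37, adjusted p = 0.0341) and differed by -0.84 in ovaries (SE 0.34, adjusted p = 0.105). Among the Hoxd genes printed above, Hoxd3 fell by 1.31 (SE 0.22, adjusted p = 0.000302), Hoxd9 fell by 0.92 (SE 0.26, adjusted p = 0.023) and Hoxd8 fell by 0.43 (SE 0.14, adjusted p = 0.0412) in ovaries, and Hoxd10 differed by -0.53 (SE 0.22, adjusted p = 0.103).

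**Figure D3:**
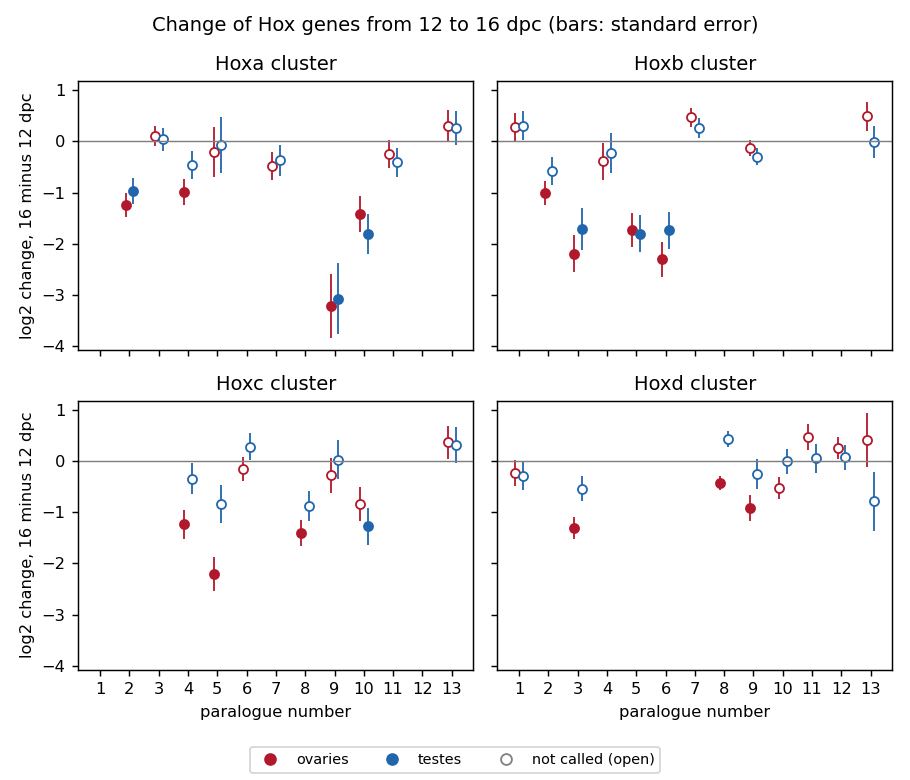
Log2 change from 12 to 16 dpc (vertical axis, 16 minus 12 dpc, mean over genotypes, bars standard error) against paralogue number (horizontal axis) in each of the 4 clusters, red for ovaries and blue for testes, filled where called. The filled points all lie below 0, and the lowest is Hoxa9 at -3.21 in ovaries.

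Members were called between 12 and 14 dpc and not between 14 and 16 dpc. From 12 to 14 dpc, 13 members fell and 0 rose in ovaries (39.4%), where 5.83% of all genes were called and 3.31% fell. Among them were Hoxa9 at -2.99, Hoxb6 at -2.29 and Hoxb3 at -2.13. In testes Hoxa2, Hoxa9, Hoxa10, Hoxb3 and Hoxb6 fell, 5 members (15.2%), where 3.02% of genes were called and 1.25% fell. These counts turned on single arrays. In testes, 0 members were called without Wv/Wv testis array 2 at 14 dpc, 1 without Wv/Wv testis array 2 or array 3 at 12 dpc and 9 without Wv/Wv testis array 1 at 12 dpc. In ovaries, 6 were called without Wv/Wv ovary array 1 and 8 without wild-type ovary array 1 at 12 dpc. From 14 to 16 dpc limma called 0 members in ovaries (0.192% of genes) and 0 in testes (0.846%), and no member had an unadjusted p below 0.05 in either. In the class-adjusted fit, 18 members fell between 12 and 14 dpc in ovaries (14.3% of genes), and 11 fell and 1 rose in testes (10.8%). That fit called 0 between 14 and 16 dpc in ovaries (3.96%) and testes (5.29%). The wide-spread testis arrays alone called 2 members between 14 and 16 dpc (4.84% of genes): Hoxd3 fell by 0.70 and Hoxb9 fell by 0.41.

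In the class-adjusted fit, 19 members fell from 12 to 16 dpc in ovaries (57.6%, against 21.3% of genes called). This added Hoxa5 at -1.02, Hoxa7 at -0.93, Hoxb4 at -0.92, Hoxc6 at -0.50 and Hoxc9 at -0.90 to the 14. In testes 10 members fell in that fit and Hoxd8 rose by 0.51, with 19.6% of genes called. The wide-spread arrays alone called 13 in testes, where 26.8% of genes were called. All but 1 of these 13 fell in testes. After quantile normalization 13 members fell and Hoxb7, always below the low-signal limit, rose in ovaries (19.1% of genes called), and 6 fell and Hoxd8 rose by 0.74 in testes (11.2%). Centring on housekeeping genes moved the median of all genes from 0.00 to 0.20 in ovaries and from -0.05 to 0.24 in testes, and with it 11 members fell in ovaries (17.6% of genes called), and 5 fell and Hoxd8 rose by 0.72 in testes (10.4%). Where arrays of the ages did not overlap, 10 members lay lower at 16 than at 12 dpc in ovaries (11.1% of genes) and 6 in testes (14.5%), and 8 lay lower at 14 than at 12 dpc in ovaries (5.58%) and 7 in testes (9.64%).

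Some markers of the mesonephros, the transient kidney beside the gonad, and of its ducts were high on the same 12 dpc arrays. Cdh16, an adhesion protein of kidney tubules and ducts, read 9.73 and 6.48 in wild-type ovaries, 9.96 and 9.56 in Wv/Wv ovaries, 6.94 in the wild-type testis and 6.71, 9.48 and 9.63 in Wv/Wv testes at 12 dpc. Gata3, a duct transcription factor, read 7.42 and 5.62, then 7.04 and 6.01, then 4.91, then 4.38, 7.32 and 7.13 on the same arrays, and Wnt9b, a duct signal, 7.37 and 4.84, then 7.44 and 6.77, then 5.57, then 4.93, 7.68 and 7.49. Later, Cdh16 reached at most 7.53 in ovaries and 5.96 in testes, Gata3 at most 5.17 and 4.80, and Wnt9b at most 5.74 and 5.88. The 5 arrays high in these markers (wild-type ovary array 1, both Wv/Wv ovaries and Wv/Wv testis arrays 2 and 3) also had the 5 highest values of Hoxb6, 7.75 or more, and of Hoxc5, 10.00 or more.

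The other 3 arrays at 12 dpc, wild-type ovary array 2, the wild-type testis and Wv/Wv testis array 1, read 10.66, 10.47 and 9.59 for Hoxa9, above every later array, and 6.64, 6.61 and 6.21 for Hoxb6. Over the whole list of mesonephros and duct markers, of which 13 of 16 were measured and 4 lay above the low-signal limit on all arrays and 0 on none, the mean was 6.75 to 7.69 in ovaries and 6.49 to 7.58 in testes at 12 dpc, and 6.57 to 7.09 and 5.80 to 6.21 later. From 12 to 16 dpc, 4 of these 13 genes fell in ovaries, among them Cdh16 at -2.65, Gata3 at -1.67 and Wnt9b at -1.38, and 4 fell in testes, among them Calb1 at -4.25 and Cdh16 at -2.17. Other listed markers went the other way in ovaries: the median of Ret was 5.61 at 12 dpc and 5.90 at 16 dpc, and that of Calb1 9.63 and 10.41. At 12 dpc Emx2 was highest, at 11.29, on wild-type ovary array 2, an array low in Cdh16, Gata3 and Wnt9b. The mean of 9 neuron and glia genes was 6.87 to 7.48 in ovaries and 6.25 to 7.54 in testes at 12 dpc, and 5.59 to 6.11 later. The mean of 7 endothelial genes was high on all 8 arrays at 12 dpc, at 7.80 to 8.23 in ovaries and 8.11 to 8.46 in testes, and at most 7.77 and 7.91 later. Of these 7 genes, 4 lay above the low-signal limit on all arrays and 0 on none, and 3 fell in ovaries and 4 in testes. The part of nerve tissue and of vessels in the age change was not tested.

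Calls of the age change moved with these arrays and markers. Without Wv/Wv testis arrays 2 and 3 at 12 dpc, 0 members were called between 12 and 16 dpc in testes (4.52% of genes), with Hoxa9 at -2.40 (limma adjusted p = 0.0969), Hoxb5 at -1.35 (adjusted p = 0.0562) and Hoxa10 at -0.97 (adjusted p = 0.0635), and 0 between 12 and 14 dpc (1.81% of genes). The class-adjusted fit without them called 8 members between 12 and 16 dpc (15.6% of genes). Of these 8, all but 1 fell. With the mean of Cdh16, Gata3 and Wnt9b as a term, 2 members fell in ovaries (3.51% of genes), Hoxd9 at -1.59 (SE 0.31, adjusted p = 0.00379) and Hoxd3 at -1.38 (SE 0.32, adjusted p = 0.0137), and 0 were called in testes (5.63%). With the mean of all 13 markers as a term, 9 members fell in ovaries (5.95% of genes) and 0 were called in testes (3.2%). Both marker terms share part of their variation with age, so a call lost with them cannot be assigned to the markers or to age. Leaving out all 5 marker-high arrays would leave no Wv/Wv ovary at 12 dpc, so that fit was not made, and the part of the duct tissue in the age change was not tested beyond these fits.

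**Figure D4:**
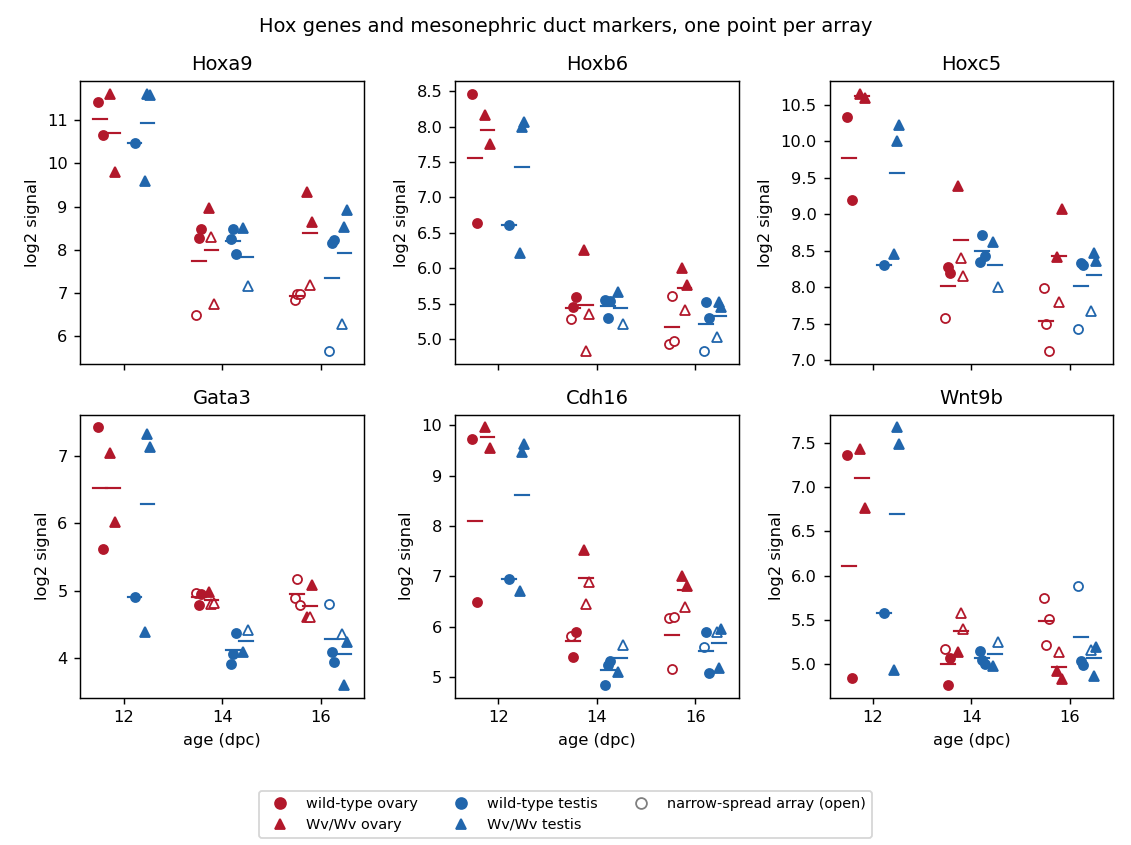
Log2 signal (vertical axis) by age in dpc (horizontal axis) of Hoxa9, Hoxb6 and Hoxc5 (top) and of the duct markers Gata3, Cdh16 and Wnt9b (bottom), with 1 point per array, colours and symbols as for the Hoxd genes. At 12 dpc Hoxb6 and Cdh16 are highest on the same 5 arrays, from 7.75 and 9.48, and Hoxa9 is at 9.59 or more on all 8.

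The mesonephros and duct markers also differed between the sexes, where 6 of 13 were lower in testes, Calb1 at -4.43 and Emx2 at -1.36 among them, and 0 were higher. With the mean of Cdh16, Gata3 and Wnt9b as a term, the 4 Hoxd genes were again called higher in testes, Hoxd10 by 1.02 (SE 0.13, limma adjusted p = 6.86e-06), Hoxd3 by 0.64 (adjusted p = 0.00539), Hoxd8 by 0.62 (adjusted p = 3.1e-05) and Hoxd9 by 0.53 (adjusted p = 0.0228). That fit called 11.4% of genes and also Hoxa10. With the mean of all 13 markers as a term, which called 4.57% of genes, none of the 4 was called: Hoxd10 was at 0.76 (adjusted p = 0.0654), Hoxd8 at 0.53 (adjusted p = 0.0571), Hoxd3 at 0.55 (adjusted p = 0.427) and Hoxd9 at 0.15 (adjusted p = 1). In that fit Hoxa10, Hoxb2 and Hoxc10 were called higher in testes instead. The mean of the 13 markers was itself 6.57 to 7.09 in ovaries against 5.98 to 6.21 in testes at 14 dpc. At 16 dpc it was 6.68 to 6.96 against 5.80 to 6.08. The term thus shares its variation with sex, and a call lost in that fit cannot be assigned to either. Other cell type lists moved with the Hoxd genes. Of 7 smooth muscle and peritubular genes, all measured, with 4 above the low-signal limit on all arrays and 0 on none, 5 were higher in testes. Their mean was 6.68 to 7.03 in ovaries and 6.64 to 7.18 in testes at 12 dpc, 6.84 to 7.26 against 7.79 to 8.08 at 14 dpc and 6.99 to 7.46 against 7.55 to 8.58 at 16 dpc, so the tissues were apart at 14 and 16 dpc and overlapped at 12 dpc. Of 13 interstitial stroma genes, 11 were measured, 10 of them above the limit on all arrays and 0 on none, and 5 were higher in testes. Their mean was 10.18 to 10.93 in ovaries and 10.57 to 10.92 in testes at 12 dpc, 9.85 to 10.64 against 10.85 to 11.39 at 14 dpc and 10.15 to 10.79 against 10.49 to 11.70 at 16 dpc. Stroma means were apart at 14 dpc and overlapped at 12 and 16 dpc. The mean of 6 measured Leydig and steroidogenesis genes was 5.25 to 5.63 in ovaries and 5.51 to 6.41 in testes at 12 dpc. It was 6.09 to 6.51 against 10.07 to 11.41 at 16 dpc, and the tissues were also apart at 14 dpc. The mean of 5 measured adrenal genes overlapped at 12 dpc and was apart at 16 dpc. At 14 dpc it was 5.48 to 6.22 against 6.78 to 7.05. The part of these cell types in the Hoxd difference was not tested.

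The age change itself differed between the sexes for 1 member, Hoxd8 (3.03% of members), a share near the 2.48% of all genes called. Hoxd8 fell by 0.43 in ovaries and differed by 0.43 in testes (SE 0.15, limma adjusted p = 0.0902), a difference between the tissues of 0.86 (SE 0.20, adjusted p = 0.021). The ovary fall was not called in 13 of 31 fits that left out 1 array. For the difference between the tissues, the class-adjusted fit gave 1.06 (adjusted p = 1.1e-05, 9.76% of genes called), and quantile normalization did not call it. The call was lost without wild-type ovary array 1 at 12 dpc (0.82, adjusted p = 0.0715) and without Wv/Wv ovary array 2 at 12 dpc (0.81, adjusted p = 0.0664), and without Wv/Wv testis arrays 2 and 3 at 12 dpc (0.73, adjusted p = 0.11).

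Between Wv/Wv and wild-type gonads, no Hox gene was called in limma. In ovaries 0 members passed (3.66% of genes), 3 had an unadjusted p below 0.05, and the lowest adjusted p was that of Hoxc5 at 0.79 (SE 0.27, adjusted p = 0.132). In testes 0 passed (0.627% of genes), 2 had an unadjusted p below 0.05, and the lowest was that of Hoxd8 at 0.39 (SE 0.12, adjusted p = 0.307). The median difference of the members was 0.17 in ovaries and 0.21 in testes, against 0.02 and 0.04 for all genes. Members with a difference above 0 numbered 25 of 33 in ovaries and 32 of 33 in testes, against 54.6% and 60.1% of all genes. In testes the 12 dpc part of this mean sets 1 wild-type array, low in the duct markers above, against 3 Wv/Wv arrays, of which 2 are high in them. At 16 dpc alone, many members, from all 4 clusters, had lower means in Wv/Wv testes and others had higher ones. The count of 32 thus holds for the mean over ages and not at that age. Among the lower ones, Hoxa5 had means of 7.71 in Wv/Wv and 8.38 in wild type, Hoxb4 of 6.12 and 6.56, and Hoxa2 of 4.87 and 5.01. Each lay within the spread of the 3 wild-type arrays. The wild-type means held highs of 10.54, 8.08 and 5.84, against Wv/Wv highs of 8.44, 6.47 and 4.92. The wild-type lows of 7.20, 5.75 and 4.54 lay below the Wv/Wv lows of 7.30, 5.88 and 4.78. For Hoxa5 the wild-type high came from the narrowest array, which the class-adjusted fit leaves out. The part of the duct tissue in the genotype difference was not tested. The genotype difference was called to differ between testes and ovaries for 0 members (0.467% of genes), with 0 at an unadjusted p below 0.05.

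The class-adjusted fit called 5 members higher in Wv/Wv ovaries (15.2%), where 22.7% of all genes were called. These were Hoxc5 at 0.70 (adjusted p = 0.0157), Hoxa5 at 0.40 (adjusted p = 0.0248), Hoxc6 at 0.38 (adjusted p = 0.0143), Hoxa3 at 0.33 (adjusted p = 0.041) and Hoxa7 at 0.29 (adjusted p = 0.0488). Hoxa5 signal also moved with the array class: it read 10.54 on wild-type testis array 1 at 16 dpc, a narrow-spread array, and 7.40 and 7.20 on the other two of that group. In testes (1.17% of genes) and for the difference between tissues (3.14%) the class-adjusted fit called 0 members.

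Of 9 TALE cofactors, the homeodomain partners of Hox proteins, 8 were measured. Pknox2 was higher in testes by 1.06 (limma adjusted p = 1.37e-06), whereas Pbx3 at -0.68 (adjusted p = 0.0132) and Pbx2 at -0.37 (adjusted p = 0.0227) were lower. From 12 to 16 dpc Meis2 fell by 2.35 (adjusted p = 0.00339) and Meis1 fell by 0.98 (adjusted p = 0.0296) in ovaries, and in testes Meis1 fell by 1.04 and Pbx2 fell by 0.72, and no cofactor rose. No cofactor was called between genotypes in either tissue, while the class-adjusted fit called Meis1 higher in Wv/Wv ovaries by 0.41 (adjusted p = 0.0401). The cofactors and the lists that follow are read against the 14.8% of all genes called between the sexes, 12.8% and 7.69% from 12 to 16 dpc in ovaries and testes, and 3.66% and 0.627% between genotypes in ovaries and testes.

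Of 22 Polycomb and trithorax regulators, 20 were measured, 0 were higher and 3 lower in testes, among them the demethylase Kdm6a at -0.75 (limma adjusted p = 0.027). Kdm6a lies on the X chromosome. From 12 to 16 dpc in ovaries 2 rose and 3 fell, with Kmt2d up by 1.66 (adjusted p = 0.044), and the Polycomb subunit Cbx2 down at -1.35 (adjusted p = 0.000134) and the methyltransferase Ezh2 at -1.24 (adjusted p = 0.0126). In testes 0 rose and 2 fell, Cbx2 at -1.02 and Jarid2 at -0.85. Between genotypes 1 was lower in Wv/Wv ovaries and 0 were called in testes.

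Of 17 upstream signals and caudal factors, which include the retinoic acid genes that set Hox expression in the embryo, 16 were measured. In testes 2 were higher, the retinoic acid degrading enzyme Cyp26b1 by 2.32 (limma adjusted p = 6.91e-12) and the synthesizing enzyme Aldh1a1 by 1.65 (adjusted p = 4.01e-07), and 3 lower, with the binding protein Crabp1 at -1.24 (adjusted p = 0.000455). From 12 to 16 dpc in ovaries 1 rose and 5 fell: Aldh1a1 rose by 3.05 (adjusted p = 3.98e-07), the retinoic acid receptor Rarb fell by 2.66 (adjusted p = 0.000145) and Crabp2 fell by 2.07 (adjusted p = 4.29e-05). In testes 1 rose and 5 fell as well, Crabp1 at -3.00, Rarb at -1.77 and Aldh1a2 at -1.64. Between genotypes 1 was lower in Wv/Wv ovaries and 0 were called in testes.

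Of 19 listed symbols of genes beside or within the 4 clusters, 14 were measured. Calcoco2 at -0.46 (limma adjusted p = 0.0044) and Hibadh at -0.35 were lower in testes and 0 were higher. From 12 to 16 dpc Smug1, a DNA repair enzyme beside the Hoxc cluster, fell by 1.61 (adjusted p = 0.00543) and Hibadh rose by 0.63 in ovaries, and 0 were called in testes. Between genotypes 2 were lower in Wv/Wv ovaries and 0 were called in testes.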

How the data were processed

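The deposited values are log2 signals of 45101 probe sets on 31 arrays, made by the authors with RMA, per the submitters' processing notes; the annotation that RMA used was not given in the sources used here. Of these, 34958 probe sets name 1 gene in the platform annotation, 932 name several and 9211 are not listed there; each of 18194 genes was represented by its brightest probe set on average. Symbols were matched to the RefSeq gene table (GRCm38.p6), which also gave gene order and promoters. With limma 3.58.1 (lmFit, then eBayes; R 4.3.3; residual df 19, prior df 4) 12 group means were fitted, contrasts weighted groups equally, and Benjamini-Hochberg adjustment ran over all genes, with calls below 0.05. The script was tested on simulated data. Arrays with an SD below 2.25 formed the narrow-spread class.

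The members, gene lists and tests were chosen with earlier results of these data known. Values per array are given for up to 14 called members with the largest changes, with Hoxd9 added, and for members with the lowest adjusted p where none was called; from other lists, up to 3 called genes with the largest change are named. The comparisons between neighbouring ages, the fits with duct markers as a term and those without Wv/Wv testis arrays 2 and 3 at 12 dpc were added after seeing the data. The number of arrays limits the precision. No group had samples with identical values: the lowest SD of the difference within 27 pairs of arrays of a group was 0.179.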

Additional observations from a re-analysis of the deposited data

Results flagged for a closer look

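For Hoxd8 the change from 12 to 16 dpc differed between testes and ovaries by 0.86 in limma's interaction test (adjusted p = 0.021), with a fall of 0.43 in ovaries and a difference of 0.43 in testes. The interaction lost its call in 2 of 30 fits leaving out 1 array and in 3 of 11 other settings, quantile normalization among them. The ovary fall lost its call in 13 of 31 such fits and in 6 of 11 other settings.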

How the results depend on the processing

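Counts of called members moved with these settings, and the cause was not tested. The share of all genes called is given above for some of these settings only. Where it is not given, a count does not show whether the members moved more than all genes. The class-adjusted fit, which also leaves out the narrowest array, called 8 members between the sexes (4 without these changes), 2 between the sexes at 12 dpc (0), 5 between genotypes in ovaries (0), 11 from 12 to 16 dpc in testes (7) and 12 from 12 to 14 dpc in testes (5). The wide-spread arrays alone called 2 between the sexes at 12 dpc, 13 from 12 to 16 dpc in testes and 2 from 14 to 16 dpc in testes (0). Each of these testis counts from 12 to 16 dpc, and the class-adjusted one from 12 to 14 dpc, includes 1 rise. Quantile normalization called 1 between genotypes in ovaries and 0 for the age difference between the sexes (1), and housekeeping centring 1 between genotypes in ovaries and 7 from 12 to 14 dpc in ovaries (13). Without low-signal genes, which left 18 members, 4 were called from 12 to 16 dpc in testes, and 8 in ovaries and 3 in testes from 12 to 14 dpc. Every probe set counted, 7 members were called between the sexes, 4 higher and 3 lower in testes.

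Without Wv/Wv testis arrays 2 and 3 at 12 dpc, 7 members were called between the sexes, 2 at 12 dpc, and 0 in testes both from 12 to 16 and from 12 to 14 dpc. In the class-adjusted fit without them, the counts were 16 between the sexes, 14 at 12 dpc, 9 between genotypes in ovaries, 1 in testes, 6 for the age difference between the sexes and 20 from 12 to 14 dpc in ovaries. In both fits without those arrays, which keep 1 Wv/Wv testis array at 12 dpc, the 4 Hoxd genes were higher in testes. All other members called between the sexes over the ages were lower in testes. At 12 dpc every called member was lower in testes, except 1 in the class-adjusted fit. The mean of all 13 duct markers as a term gave 1 between the sexes at 12 dpc, 9 in ovaries and 0 in testes from 12 to 16 dpc, 2 for the age difference, 2 in ovaries and 0 in testes from 12 to 14 dpc, and it turned Hoxc10 in testes from -1.28 to 0.12. The mean of 3 markers as a term gave 2 in ovaries and 0 in testes from 12 to 16 dpc, and 1 and 0 from 12 to 14 dpc.

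Leaving out 1 array at a time gave 4 to 6 called members between the sexes, 0 at 12 dpc, 2 to 5 at 14 dpc and 4 to 5 at 16 dpc, 0 between genotypes in ovaries and 0 to 1 in testes, 10 to 15 from 12 to 16 dpc in ovaries and 5 to 10 in testes, 0 to 1 for the age difference, 6 to 14 from 12 to 14 dpc in ovaries and 0 to 9 in testes, and 0 from 14 to 16 dpc in either tissue. From 12 to 14 dpc in ovaries, 8 were called without wild-type ovary array 1 at 12 dpc and 6 without Wv/Wv ovary array 1 at 12 dpc. In testes, 0 were called without Wv/Wv testis array 2 at 14 dpc, 1 without Wv/Wv testis array 2 or 3 at 12 dpc, and 9 without Wv/Wv testis array 1 at 12 dpc. Of 52 called changes of single members, 30 kept the call without every array in turn. Over the other settings the 52 changes gave 592 values, of which 464 kept direction and call, 127 lost the call and 1 turned.

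No pairing by replicate number was seen: deviations of 138 same-numbered pairs had a median correlation of 0.01, from -0.85 to 0.85. Those of 270 differently numbered pairs had a median of 0, from -0.89 to 0.84. With so wide a range and so few arrays per group, this check cannot exclude pairing. With the number as a replicate block, 3 members in place of 5 were called from 12 to 14 dpc in testes, and 13 and 6 from 12 to 16 dpc in ovaries and testes.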

Other observations

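Hoxd13, the gene at the tail end of its cluster that is known for the digits and the external genitalia, read 9.76 on Wv/Wv testis array 2 at 12 dpc, 6.38 on array 3 and 4.90 on array 1 of that group, and at most 5.99 on the other arrays. Its other probe set stayed at 5.16 or below on all 31 arrays, so the probe sets of this gene disagree. Hoxd13 was singled out after its values were seen. Among 18194 genes, 6 read at least 2 log2 units above the highest of the other 30 arrays on that array: Clca1 by 3.63, Hoxd13 by 3.37, Fendrr by 3.07, Foxf2 by 2.60, Isl1 by 2.00 and Foxa1 by 2.00. The cause was not tested.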
